A study of Saccharomyces cerevisiae with 27 samples.

Results

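The 10 genes described here, SIT1, ARN1, ARN2, ENB1, FRE1, FRE2, FET3, FTR1, FIT1 and HMX1, serve iron uptake in budding yeast. They were taken by gene symbol from the annotation of the array platform, which gave 1 probe set to each of the 10, out of 5716 probe sets tested. Yeast gathers iron along a pair of routes. In the reductive route, the cell-surface reductases Fre1 and Fre2 turn ferric into ferrous iron, which the multicopper oxidase Fet3 and the permease Ftr1 carry across the plasma membrane as one complex. In the other route, the transporters Sit1, Arn1, Arn2 and Enb1 import iron bound to siderophores, small chelators made by other microbes, and the cell wall mannoprotein Fit1 helps to hold siderophore iron at the cell surface. Hmx1 is a haem oxygenase of the endoplasmic reticulum that frees iron from haem. The transcription factors Aft1 and Aft2 switch these genes on when iron is low, and FRE1 also answers to the copper regulator Mac1.

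The study compared strains with changed cohesin regulators: Eco1 acetylates cohesin and so makes it hold sister chromatids together, Fob1 stops replication forks in the ribosomal DNA, and Rad61 helps to take cohesin off chromosomes. Affymetrix expression arrays were run on 27 cultures, 3 for each of 9 groups covering 8 genotypes, all grown at 30 °C in YPD with CSM and collected in exponential phase. In June these were eco1-W216G, the fob1 deletion and the wild type control w303a. In April these were the eco1-W216G rad61 and eco1-W216G fob1 double mutants, the mcd1 fob1 double mutant with Rec8 from the Mcd1 promoter, the mcd1 mutant with Rec8 from the same promoter, and the rad61 and fob1 deletions. Each genotype was 1 strain, and the same fob1 strain was grown on both dates, while wild type was grown only in June. The replicates are thus cultures of 1 strain, and p-values measure the spread between these cultures.

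ECO1, FOB1 and RAD61 had low signal where the labels place their mutation. ECO1 averaged 4.61 to 4.92 in the 3 eco1-W216G groups, against 7.85 to 8.10 in the other 6 groups (log2 intensity, group means), while a point mutation is what the label gives. FOB1 averaged 3.84 to 4.22 and RAD61 3.77 to 3.93 in their deletions, against at least 9.25 and 6.80 elsewhere. MCD1 signal did not bear out the labels of the pair of mcd1 strains, and REC8 signal went with them in part. MCD1 signal was 11.01 in the strain labelled mcd1 fob1 with Rec8, within the 10.96 to 11.34 of strains with no mcd1 label, and lay in that range in the strain labelled mcd1 with Rec8 too. REC8 averaged 5.89 in the strain labelled mcd1 fob1 with Rec8 and 5.70 in the strain labelled mcd1 with Rec8, against 5.23 to 5.66 in the other 7 groups. In the first of these strains REC8 rose by 0.57 ± 0.12 against the fob1 deletion of April (limma, adjusted p = 0.0303). In the second it differed by 0.53 ± 0.17 from wild type across dates (limma, adjusted p = 0.144). Arrays of a group correlated at 0.986 to 0.998. Replicate 2 of the June fob1 deletion stood apart from its group (SD of its deviations over all probe sets 0.235, against 0.0748 to 0.197 on all other arrays). Replicate 2 of the rad61 deletion had chromosome IX genes 0.82 above its group mates on the log2 scale (median). No member lies on chromosome IX. Iron genes near each other on chromosome XV were low in both eco1-W216G strains that kept FOB1, FIT2 and FRE3 near the level of the deleted genes and FIT3 above it. FIT2 averaged 3.87 in eco1-W216G and 4.04 in eco1-W216G rad61, against 12.30 in eco1-W216G fob1 and 10.77 in wild type, and FRE3 averaged 4.28 in eco1-W216G and 4.49 in eco1-W216G rad61, against 9.31 in eco1-W216G fob1 and 8.71 in wild type. FIT3 averaged 6.79 in eco1-W216G and 7.18 in eco1-W216G rad61, against 13.42 in eco1-W216G fob1 and 12.09 in wild type.

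Signal of 1 probe set is compared only between groups, never between genes, and in bulk cultures fewer expressing cells and less RNA per cell cannot be told apart. Of the 9 group means, those of SIT1, ARN1, ARN2, ENB1, FRE2, FET3 and FIT1 were all highest in eco1-W216G fob1. For SIT1, ARN1, ARN2, ENB1 and FRE2 they were lowest in the June fob1 deletion. An order over all groups mixes genotype with date, and in the fob1 strain all 10 genes had lower means in June than in April. For SIT1, with means between 12.13 in eco1-W216G fob1 and 10.84 in the June fob1 deletion (log2 intensity), each group overlapped the next one in this order. For FRE2, a reductase that acts on siderophore iron as well, the highest group stood clear of the next: 8.60 in eco1-W216G fob1, against 8.04 in the strain labelled mcd1 fob1 with Rec8. HMX1 followed another order. It was highest in eco1-W216G (June) at 10.54, then 10.11 in eco1-W216G rad61 (April), with no overlap between their arrays. HMX1 was lowest in wild type (June) at 9.29, clear of the strain labelled mcd1 with Rec8 (April) at 9.79. With the shift of the fob1 strain between dates taken off, the last difference did not pass the limma test.

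**Figure D1:**
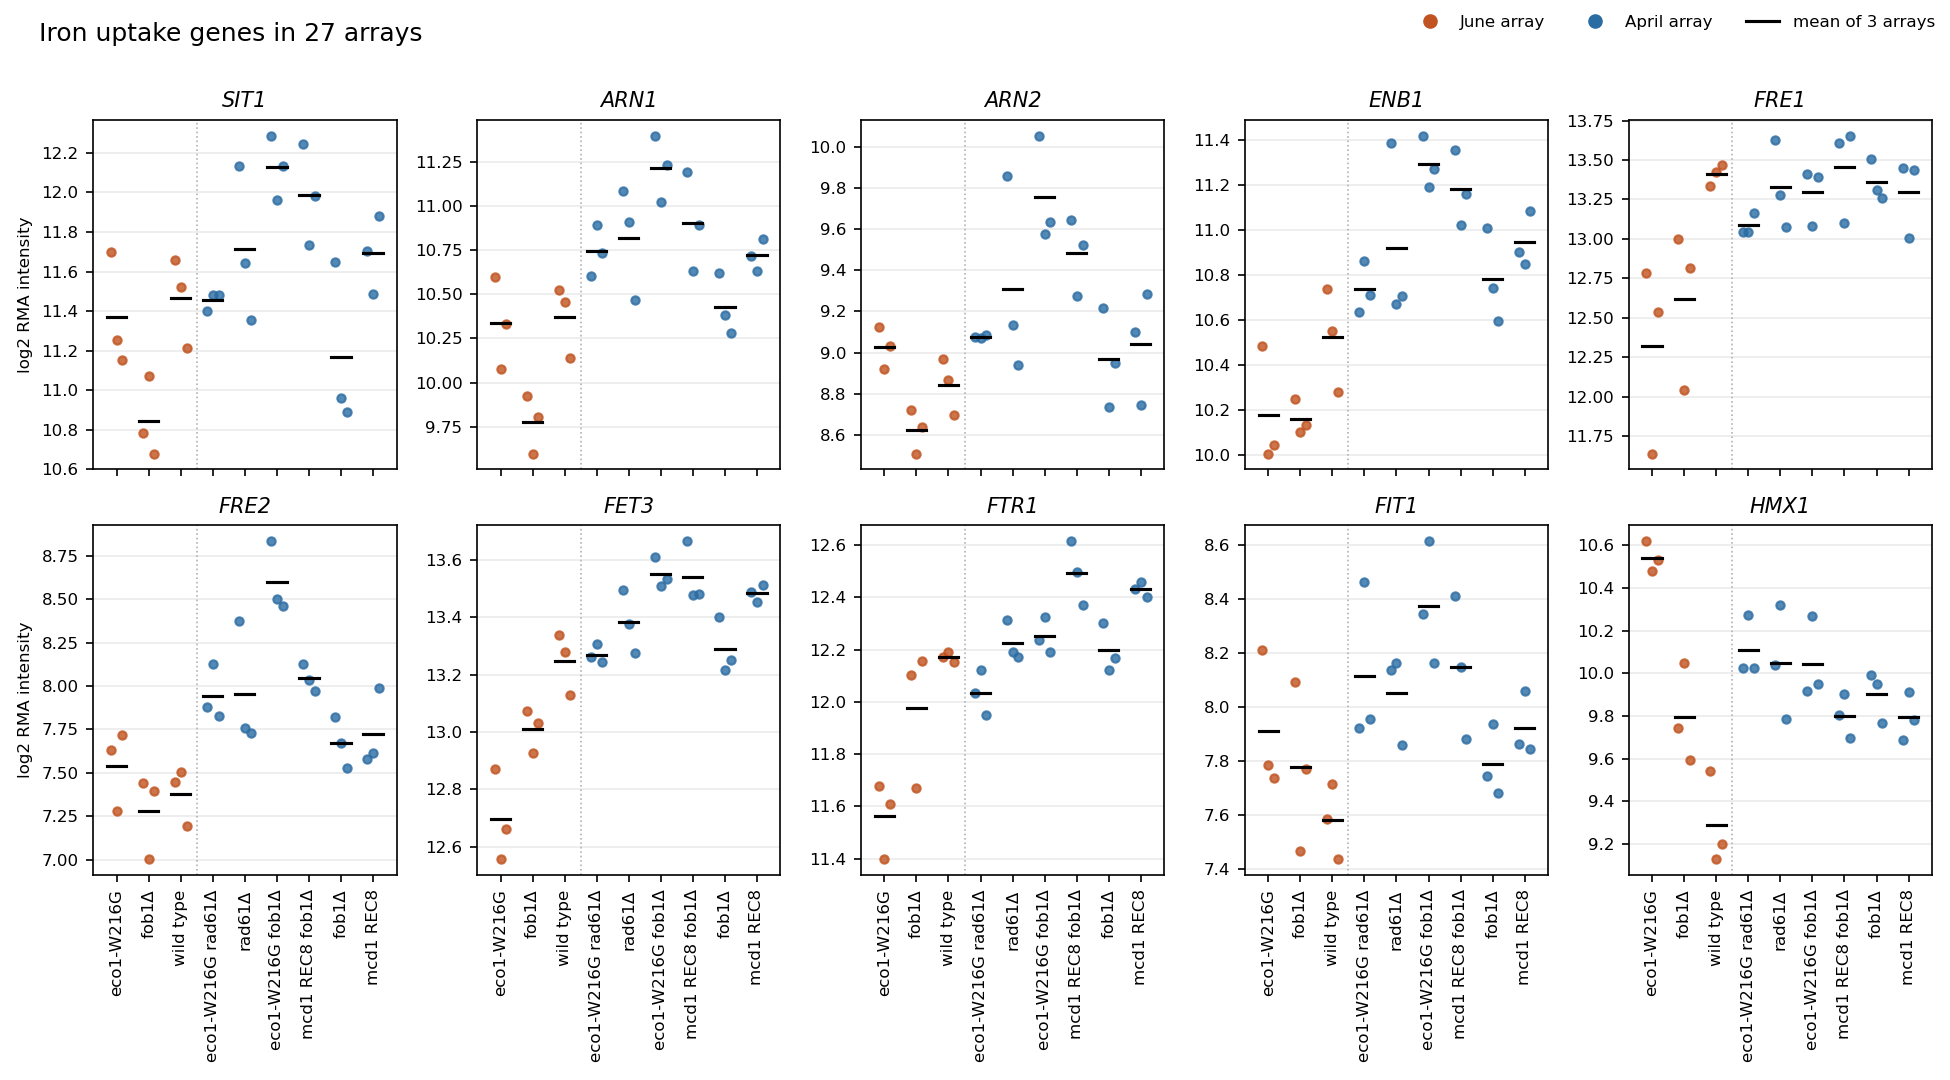
Log2 RMA intensity (vertical axis, own scale in each panel) of the 10 genes in the 27 arrays, by group (horizontal axis); points are arrays, bars are means of 3 arrays, and the dotted line parts June from April. The siderophore transporters are highest in eco1-W216G fob1, FRE1, FET3 and FTR1 are lowest in eco1-W216G, and HMX1 is highest in eco1-W216G and lowest in wild type. Orders across the dotted line mix genotype with date.

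In eco1-W216G against wild type, FRE1, FET3 and FTR1, 3 of the 4 reductive genes, fell and the haem oxygenase gene HMX1 rose, while neither FRE2 nor any of the siderophore transporter genes passed the test. Differences were tested with limma over all probe sets, and a gene rose or fell where its Benjamini-Hochberg adjusted p was under 0.05. Of the 10 genes 1 rose and 3 fell. This strain changed much of the genome: 23.7% of all probe sets rose and 30% fell, so that the members' counts lay near or below the background and nothing is read from them about these genes as a group. The median member differed by -0.07 and the median probe set by -0.05 on the log2 scale. The 4 calls held in all 14 alternative settings run for them.

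FRE1, the main surface reductase, had intensities of 7053, 3188.5 and 5934 in eco1-W216G, against 10328, 10997 and 11348 in wild type. All eco1-W216G arrays lay below all wild-type arrays, with replicate 2 well below the other two. The log2 difference was -1.09 ± 0.24 (limma SE, n = 3 arrays per group, adjusted p = 0.000699), and -0.75 without that replicate, with an adjusted p of 0.00789. FET3 had intensities of 7498, 6031 and 6477 in eco1-W216G, against 10361, 9936.5 and 8949.6 in wild type, again without overlap. FET3 fell by 0.55 ± 0.08 on the log2 scale (adjusted p = 6.44e-06). FTR1, whose product works in one complex with Fet3, had 3277, 2701 and 3120.1 in eco1-W216G, against 4619.8, 4671 and 4552 in wild type. The wild-type arrays of FTR1 lay close together, all above the mutant, and FTR1 fell by 0.61 ± 0.10 (adjusted p = 2.48e-05). The fitted eco1-W216G level was 0.683-fold of wild type for FET3 and 0.655-fold for FTR1.

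HMX1 moved the other way. Its intensities were 1573, 1426 and 1477 in eco1-W216G, against 744.7, 560.4 and 588 in wild type, 2.38-fold higher without overlap (log2 difference 1.25 ± 0.13, adjusted p = 1.25e-07). The siderophore transporters had log2 differences of -0.10 (SIT1), -0.04 (ARN1), 0.18 (ARN2) and -0.34 (ENB1), and the arrays of both groups overlapped for each. For ARN1 the 95% interval of the difference was -0.38 to 0.30. FRE2 differed by 0.16 and FIT1 by 0.33, and neither passed the test, although the FIT1 arrays of the mutant lay above those of wild type.

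Stress-responsive genes moved with these changes. All 8 genes of the stress list rose in eco1-W216G (HSP12, HSP26, CTT1, DDR2, SSA3, SSA4, GPH1 and TPS1), with a summed level, as the mean of 8 log2 signals per array, of 11.86 to 12.08 in eco1-W216G, against 9.46 to 9.68 in wild type. Their part in the changes of the iron genes was not tested.

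FRE1 varied together with a few other genes, named after their values were seen. CRR1, the next gene to FRE1 on chromosome XII in the R64 gene table, had intensities of 149, 62.7 and 162 in eco1-W216G, against 264, 256 and 282 in wild type, a fall of 1.22 on the log2 scale (adjusted p = 0.000851). Its replicate 2 was lowest in eco1-W216G, as for FRE1. CTR1, the high-affinity copper transporter gene, had 10982, 5995 and 9051 in eco1-W216G, against 11925, 12460.0 and 12797 in wild type, and fell by 0.56 ± 0.15 (adjusted p = 0.00435). FRE7, a copper-responsive reductase gene, spread most, with 4254.5, 1018 and 2734 in eco1-W216G, against 2904, 3273 and 3217 in wild type, so that the groups overlapped. In replicate 2 of eco1-W216G, FRE1, CRR1, CTR1 and FRE7 were all at their lowest of the 3 arrays. Over the 27 arrays' deviations from their own group means, FRE1 correlated at 0.95 with CRR1, 0.83 with the low-affinity iron transporter gene FET4, 0.81 with CTR1 and 0.72 with FRE7. In this order these genes ranked 2, 4, 5 and 9 among all probe sets, where FRE1 itself was counted and came first. No other probe set thus correlated with FRE1 more closely than CRR1. The other 7 measured copper genes correlated with FRE1 at -0.25 (CUP1-1) to 0.58 (CCS1) on the same deviations. These correlations describe arrays that share groups and, in part, replicate numbers.

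When eco1-W216G was added to the fob1 deletion, in April, the response was of another kind: siderophore transporter genes and FRE2 rose, and no member fell. Of the 10 genes 4 rose, while only 0.49% of all probe sets rose and 0.297% fell. The median member differed by 0.55 and the median probe set by 0.01 on the log2 scale. At an unadjusted p under 0.05 were 7 of the 10 genes, beside 637 of the 5716 probe sets.

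SIT1, the ferrioxamine transporter gene, had intensities of 4997, 3984 and 4495 in eco1-W216G fob1, against 3208, 1994 and 1899 in the fob1 deletion. The groups did not overlap, and replicate 1 was highest in both (log2 difference 0.96 ± 0.20, adjusted p = 0.0216). ARN1, which imports ferrichrome-type siderophores, had 2695, 2080 and 2402 in eco1-W216G fob1, against 1575, 1333 and 1246 in the fob1 deletion, and rose by 0.79 ± 0.16 (adjusted p = 0.0215). ARN2, the triacetylfusarinine transporter gene, had 1063, 764 and 795 in eco1-W216G fob1, against 595.7, 426 and 494 in the fob1 deletion, and rose by 0.79 ± 0.18 (adjusted p = 0.0397). In each of these 3 genes the lowest double-mutant array lay above the highest array of the fob1 deletion.

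FRE2 had intensities of 456, 362 and 352 in eco1-W216G fob1, against 226, 204 and 184 in the fob1 deletion. The groups lay far apart for the size of their spread (0.92 ± 0.16, adjusted p = 0.00533). ENB1, the enterobactin transporter gene, differed by 0.51 ± 0.16 (adjusted p = 0.166), FIT1 by 0.58 ± 0.17 (adjusted p = 0.145) and FET3 by 0.26 ± 0.08 (adjusted p = 0.153), all without overlap but short of the threshold. FRE1, FTR1 and HMX1 differed by -0.06, 0.05 and 0.14, with overlapping arrays.

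Same-numbered replicates of these groups deviated together, and with replicate number as a block FET3 (adjusted p = 0.0335) and FIT1 (adjusted p = 0.0228) rose as well, 6 genes in all. The calls rest on few arrays: 2 genes rose when only these 6 arrays were fitted, 1 without replicate 3 of the double mutant or replicate 2 of the fob1 deletion, and 0 without replicate 1 of the double mutant or replicate 3 of the fob1 deletion. Of the 8 stress genes 0 passed the limma test and 3 had an unadjusted p under 0.05, and their mean level was 10.27 to 10.41 in eco1-W216G fob1, against 10.03 to 10.14 in the fob1 deletion.

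When eco1-W216G was added to the rad61 deletion, none of the 10 genes passed the limma test, while 5.18% of all probe sets rose and 1.54% fell. None of the 10 had an unadjusted p under 0.05, beside 1323 of the 5716 probe sets. SIT1 had intensities of 2705, 2859 and 2860.0 in eco1-W216G rad61, against 4501, 3200.4 and 2621 in the rad61 deletion. The double mutant was tight and lay inside the wide range of the single deletion, with a 95% interval for the log2 difference of -0.68 to 0.16. The 10 differences ran between -0.26 for SIT1 and 0.06 for FIT1. FTR1 had 4192, 4463 and 3951 in eco1-W216G rad61, against 5088, 4671 and 4619 in the rad61 deletion, lower without overlap but not past the threshold (-0.19 ± 0.10, adjusted p = 0.249). HMX1 had 1043, 1237 and 1041 in eco1-W216G rad61, against 1053, 1278.5 and 882 in the rad61 deletion, with an interval of -0.22 to 0.34. Of the 8 stress genes 4 rose, with mean levels of 10.95 to 11.05 in eco1-W216G rad61, against 10.05 to 10.66 in the rad61 deletion.

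The change made by eco1-W216G was then compared between backgrounds directly. The change in the fob1 deletion (April) minus that in wild type (June) was above 0 for 7 genes and below 0 for 1 at an adjusted p under 0.05, beside 21.2% of all probe sets higher and 18% lower. The median member had a difference of 0.79 and the median probe set 0.05. Because each change was taken within its own date, a shift of all strains by date cancels, but background and date changed together and cannot be told apart. The eco1-W216G strain also had low signal of the iron genes FRE3, FIT2 and FIT3, while eco1-W216G fob1 did not. That strain difference cannot be told apart from the background either. The stress genes differed in the same contrast, all 8 with a smaller change in the fob1 deletion.

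The siderophore transporters SIT1 (1.06 ± 0.29, adjusted p = 0.00585), ENB1 (0.85 ± 0.23, adjusted p = 0.00556) and ARN1 (0.82 ± 0.23, adjusted p = 0.00749) had a more positive eco1-W216G change in the fob1 deletion than in wild type. For SIT1 that was a change of 0.96 in the fob1 deletion, against -0.10 in wild type. ARN2 had a difference of 0.61 ± 0.26, which missed the threshold (adjusted p = 0.0648). Among the reductive genes, FET3 changed by 0.26 in the fob1 deletion, against -0.55 in wild type (difference 0.81 ± 0.11, adjusted p = 1.12e-05). FTR1 changed by 0.05 in the fob1 deletion, against -0.61 in wild type (difference 0.66 ± 0.14, adjusted p = 0.000769). FRE2 had a difference of 0.76 ± 0.23 and FRE1 of 1.03 ± 0.34, the last lost without replicate 2 of eco1-W216G (0.69, adjusted p = 0.0744). HMX1 changed by 0.14 in the fob1 deletion, against 1.25 in wild type (difference -1.11 ± 0.19, adjusted p = 0.000116). All these calls but that of FRE1 held in all 19 or 20 alternative settings run for each.

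**Figure D2:**
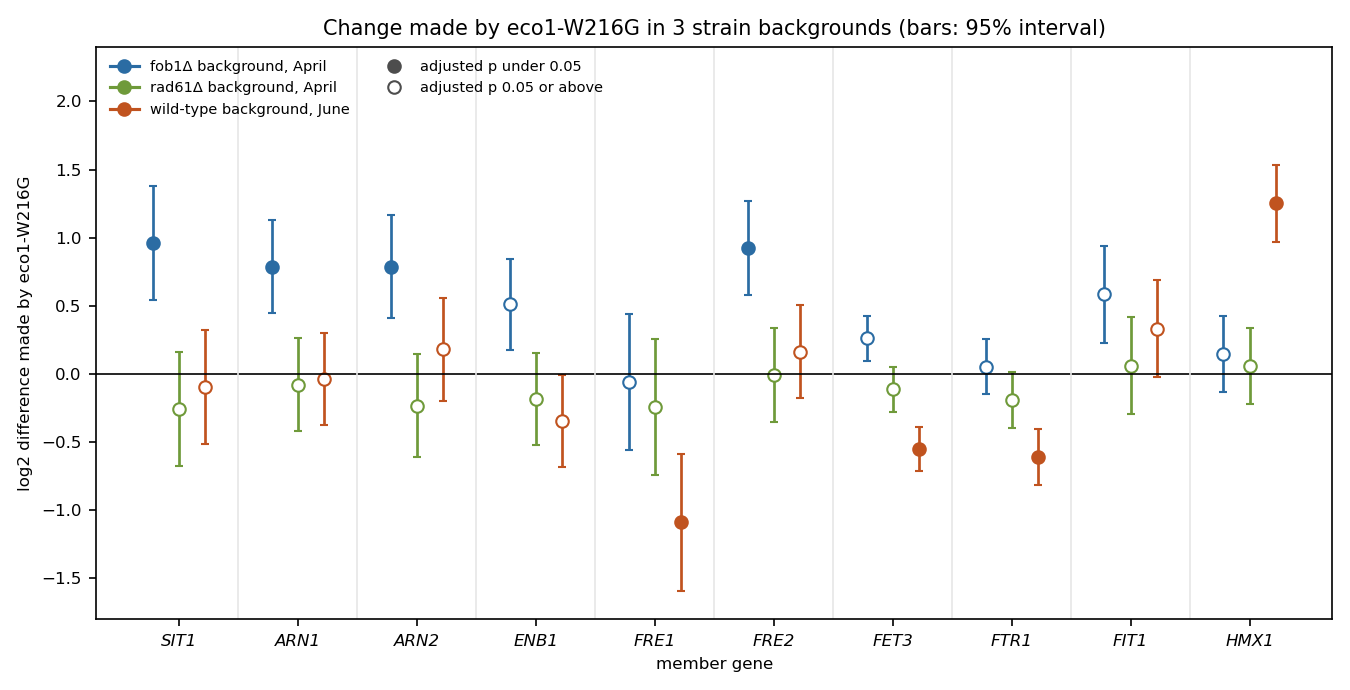
Log2 difference made by eco1-W216G (vertical axis) for each of the 10 genes (horizontal axis) in the fob1 deletion, the rad61 deletion and wild type; bars are 95% intervals from limma and filled points have an adjusted p under 0.05. In the fob1 deletion SIT1, ARN1, ARN2 and FRE2 pass the test above 0, and the intervals of ENB1, FET3 and FIT1 lie above 0 without passing. No gene passes the test in the rad61 deletion. In wild type FRE1, FET3 and FTR1 pass below 0 and HMX1 above it, and the ENB1 interval lies below 0 without passing.

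In the rad61 deletion the eco1-W216G change differed from that in wild type for FET3, FTR1 and HMX1. The change in the rad61 deletion minus that in wild type was 0.44 ± 0.11 for FET3 (adjusted p = 0.00735), 0.42 ± 0.14 for FTR1 (adjusted p = 0.032) and -1.19 ± 0.19 for HMX1 (adjusted p = 0.000155). That made 2 genes higher and 1 lower, beside 11.8% of all probe sets higher and 11.6% lower. FTR1 lost its call in 8 of 21 alternatives: without replicate 2 of eco1-W216G (adjusted p = 0.0925), replicate 1 or 2 of eco1-W216G rad61, replicate 2 or 3 of the rad61 deletion, or any 1 of the wild-type arrays. The siderophore transporters had differences of -0.41 to 0.16, none past the threshold. Both contrasts share the eco1-W216G and wild-type arrays of June, so the values of FET3, FTR1 and HMX1 in them are not independent.

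Set against each other on the same date, eco1-W216G rad61 was lower than eco1-W216G fob1 in 4 of the 10 genes and higher in 0, beside 1.54% of all probe sets lower and 3.43% higher. FRE2 had intensities of 235, 279.7 and 228 in eco1-W216G rad61, against 456, 362 and 352 in eco1-W216G fob1, without overlap (-0.65 ± 0.16, adjusted p = 0.023). ARN2 had 539.6, 537 and 544 in eco1-W216G rad61, against 1063, 764 and 795 in eco1-W216G fob1, where the first group was nearly constant and the other spread (-0.68 ± 0.18, adjusted p = 0.0311). ENB1 fell by 0.56 ± 0.16 (adjusted p = 0.0494) and FET3 fell by 0.28 ± 0.08 (adjusted p = 0.042). SIT1 at -0.67 and ARN1 at -0.47 had no overlap between groups either, but adjusted p-values of 0.0555 and 0.0971. HMX1 differed by 0.06. The count fell to 0 without replicate 1 of eco1-W216G fob1 or replicate 1 or 3 of eco1-W216G rad61, and to 1 without any other of these 6 arrays. Between these strains FRE3, FIT2 and FIT3 differed too, being low in eco1-W216G rad61, and the part of that difference was not tested.

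The fob1 deletion alone, against wild type in June, had 1 member higher and 4 lower, beside 8.73% of all probe sets higher and 6.91% lower. ARN1 had intensities of 973, 775 and 894 in the fob1 deletion, against 1469.9, 1405 and 1126 in wild type, without overlap (-0.60 ± 0.16, adjusted p = 0.018). SIT1 had 1761, 2148 and 1639 in the fob1 deletion, against 3229, 2942.5 and 2371 in wild type, also without overlap (-0.62 ± 0.20, adjusted p = 0.0411). FRE1 had 8178, 4209 and 7217 in the fob1 deletion, with replicate 2 low as in eco1-W216G, against 10328, 10997 and 11348 in wild type (-0.79 ± 0.24, adjusted p = 0.0305), and the difference was -0.50 without that replicate of the fob1 deletion (adjusted p = 0.177). FET3 fell by 0.24 ± 0.08 (adjusted p = 0.0455). HMX1 had 856, 1058 and 773 in the fob1 deletion, against 744.7, 560.4 and 588 in wild type, and rose by 0.50 ± 0.13 (adjusted p = 0.0158).

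These 5 calls came down to 0 when only these 6 arrays were fitted or without replicate 2 of wild type, to 1 without replicate 2 of the fob1 deletion or replicate 3 of wild type, to 2 without replicate 1 of wild type and to 3 without replicate 1 of the fob1 deletion. With the pair of arrays that stood apart left out, only the fall of SIT1 passed the test. Of 8 stress genes 2 rose, with mean levels of 9.67 to 10.26 in the fob1 deletion, against 9.46 to 9.68 in wild type.

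The fob1 strain grown on both dates gives the difference between dates. All 10 genes had lower means in June than in April, and 3 passed the test, beside 1.82% of all probe sets lower and 2.99% higher in June. ARN1 had intensities of 973, 775 and 894 in June, against 1575, 1333 and 1246 in April (-0.65 ± 0.16, adjusted p = 0.028). ENB1 had 1216, 1098 and 1125 in June, against 2065, 1715 and 1549.7 in April, without overlap (-0.62 ± 0.16, adjusted p = 0.032). FET3 fell by 0.28 ± 0.08 (adjusted p = 0.0454). Normalization of both dates together is not given in the sources used here. The count was 0 without replicate 2 of either date or replicate 1 of April, and 0 when only these 6 arrays were fitted.

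In the strain labelled mcd1 fob1 with Rec8, a protein that takes the place of Mcd1 in meiotic cohesin, most members lay above the fob1 deletion without passing the test. By limma 0 of the 10 genes passed, beside 0.0875% of all probe sets that rose and 0.21% that fell. An unadjusted p under 0.05 was found for 8 of the 10 genes, beside 458 of the 5716 probe sets. SIT1 had intensities of 4854, 3406 and 4046 in the strain labelled mcd1 fob1 with Rec8, against 3208, 1994 and 1899 in the fob1 deletion, without overlap (0.82 ± 0.20, adjusted p = 0.0897). FTR1 had 6276, 5774 and 5298 in the strain labelled mcd1 fob1 with Rec8, against 5054, 4455 and 4603 in the fob1 deletion, the highest FTR1 mean of the 9 groups (0.30 ± 0.10, adjusted p = 0.354). The median member differed by 0.37, against 0.02 for the median probe set. This comparison and the eco1-W216G fob1 one share the 3 fob1 deletion arrays of April, so the values stand side by side only. Without replicate 1 of the fob1 deletion, SIT1 passed the test (1.06, adjusted p = 0.0126).

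The fob1 deletion in the strains labelled with Rec8 changed 0 of the 10 genes by limma. An unadjusted p under 0.05 was found for ARN2 alone, beside 173 of the 5716 probe sets. ARN2 had 802, 619 and 736 in the strain labelled mcd1 fob1 with Rec8, against 549, 429 and 624 in the strain labelled mcd1 with Rec8. No probe set rose (0%) and 0.0175% fell. The rad61 deletion against the fob1 deletion in April also gave 0 of 10, beside 0.0175% of probe sets higher and 0.0175% lower. SIT1 and ARN1 had unadjusted p-values under 0.05 there, beside 279 of the 5716 probe sets. SIT1 had 4501, 3200.4 and 2621 in the rad61 deletion, against 3208, 1994 and 1899 in the fob1 deletion, with an interval of 0.13 to 0.96. The groups overlapped, but within same-numbered pairs SIT1 was higher in the rad61 deletion in 3 of 3, by 0.49, 0.68 and 0.47, and ARN1 by 0.47, 0.53 and 0.18. This was not particular to them: FRE2, FET3, FTR1, FIT1 and HMX1 were also higher in 3 of 3, FTR1 by only 0.0095, 0.0684 and 0.0049. ARN2 and ENB1 were higher in 2 of 3 and FRE1 in 1 of 3. No share over all probe sets stands beside these pair counts. With replicate number as a block SIT1 had an adjusted p of 0.367 and ARN1 of 0.458, again 0 of 10. Without the array of the rad61 deletion that stood apart, the count was 0 both here and for eco1-W216G added to the rad61 deletion.

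Against wild type, the April strains could be compared only across dates, with the shift of the fob1 deletion between dates taken off. For the rad61 deletion 0 of the 10 genes passed the limma test, beside 0.227% of probe sets higher and 0.0875% lower. An unadjusted p under 0.05 was found for 2 of the 10, beside 931 of the 5716 probe sets. HMX1 differed by 0.65 ± 0.19 (adjusted p = 0.12) and FRE1 by -0.82 ± 0.34 (adjusted p = 0.246). For the strain labelled mcd1 with Rec8, 0 of the 10 genes passed, beside 0.0525% of probe sets higher and 0.0175% lower. There 1 gene had an unadjusted p under 0.05, beside 916 of the 5716 probe sets, and HMX1 differed by 0.39 ± 0.19 (adjusted p = 0.313). With the pair of arrays that stood apart left out, 0 genes passed in either comparison, and HMX1 differed by 0.39 in the rad61 deletion. Without replicate 3 of the June fob1 deletion, HMX1 passed there (0.75, adjusted p = 0.0411).

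**Figure D3:**
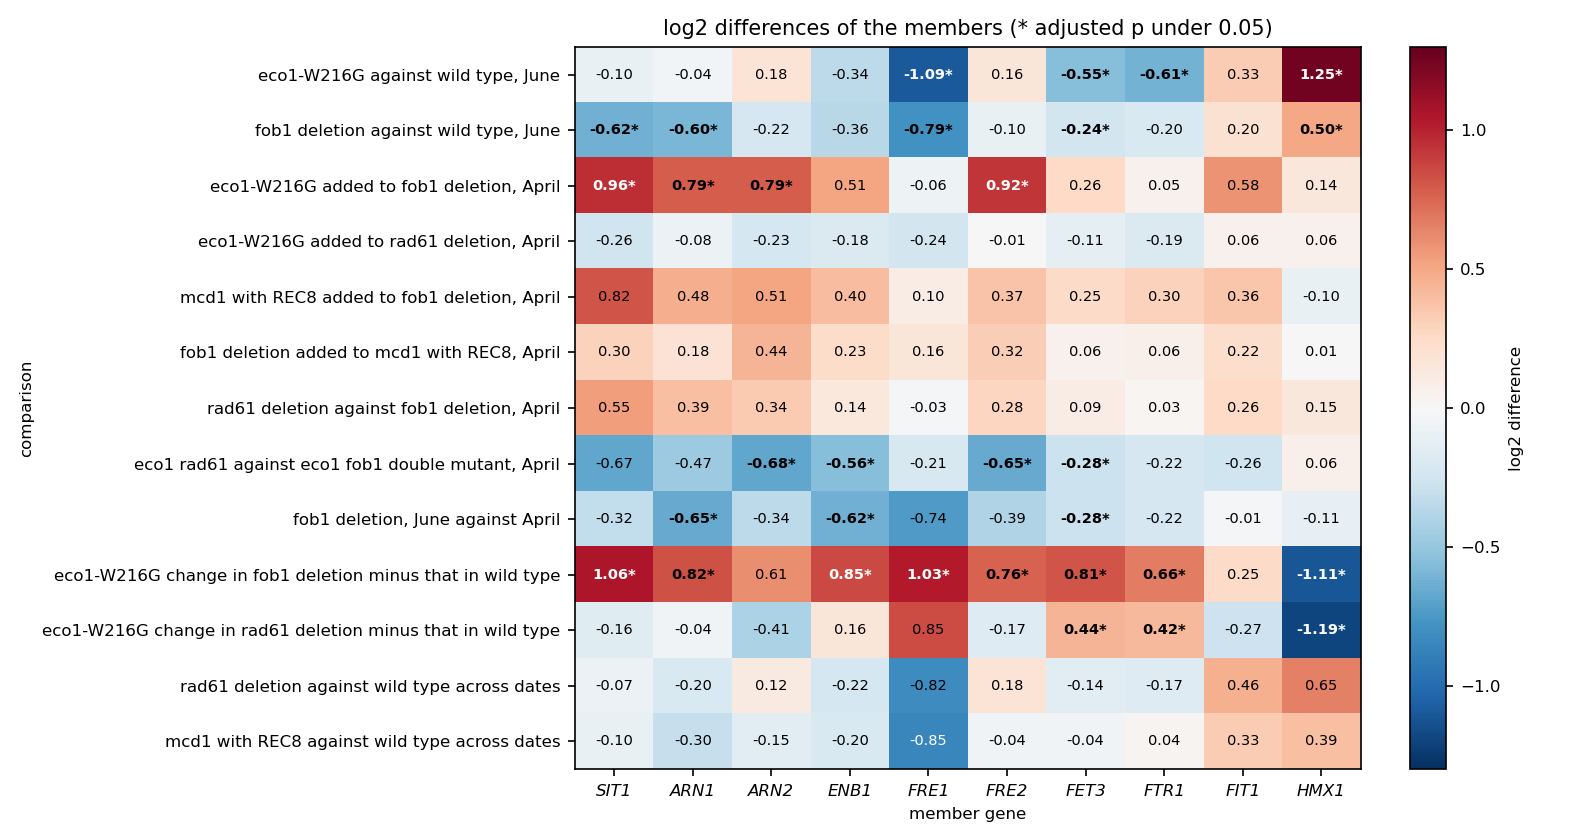
Log2 differences of the 10 genes (columns) in the 13 comparisons (rows), with colour for the size and a star for an adjusted p under 0.05 by limma. Stars for the siderophore transporters are positive only in the rows for eco1-W216G added to the fob1 deletion and for its difference from wild type, and HMX1 and FRE1 have opposite signs in the 3 rows in which both carry a star.

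Of a list of 19 further Aft1 or Aft2 targets, 1 rose and 6 fell in eco1-W216G against wild type, beside the 23.7% of all probe sets that rose and the 30% that fell. Among those that fell were FRE3, FIT2 and FIT3, the chromosome XV genes already low in that strain. FRE4, a surface reductase gene, fell by 2.02 ± 0.16 (adjusted p = 1.19e-09), and ISU1, an iron-sulphur scaffold gene, rose by 0.76 ± 0.11 (adjusted p = 1.17e-05). When eco1-W216G was added to the fob1 deletion, 0 of 19 passed the limma test. An unadjusted p under 0.05 was found for 11 of 19, beside 637 of the 5716 probe sets, and the list median was 0.26, against 0.01 for all probe sets. When eco1-W216G was added to the rad61 deletion, 4 of 19 fell, FRE3, FIT2 and FIT3 among them, beside 1.54% of all probe sets. These chromosome XV neighbours were low together in both eco1-W216G strains that kept FOB1. They are thus not separate counts, and nothing is read from this count about the list. In the fob1 deletion 4 of 19 were lower in June than in April, beside 1.82% of all probe sets. In eco1-W216G rad61 against eco1-W216G fob1, 5 of 19 fell, beside 1.54% of all probe sets. They were FRE3, FIT2 and FIT3, again the low chromosome XV neighbours, with FRE4 and TIS11. The last encodes Cth2, the factor that marks mRNAs of iron-using proteins for decay. TIS11 fell by 1.01 ± 0.25 (adjusted p = 0.0219).

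Of 7 regulator genes 3 fell in eco1-W216G against wild type, where 30% of all probe sets fell. AFT1 averaged 8.94 ± 0.18 in eco1-W216G, against 9.54 ± 0.04 in wild type (log2 intensity, SD, n = 3), and fell by 0.60 ± 0.09 (adjusted p = 7.07e-06). AFT2 fell by 0.37 ± 0.11 (adjusted p = 0.00948) and GRX4, a glutaredoxin gene of iron sensing, fell by 0.14 ± 0.06 (adjusted p = 0.0411). By limma 0 of the 7 passed when eco1-W216G was added to the fob1 deletion, with 0 at an unadjusted p under 0.05, and 0 when it was added to the rad61 deletion, with 1. AFT1 was lower in eco1-W216G rad61 than in eco1-W216G fob1, by -0.33 ± 0.09 (adjusted p = 0.0294). Of 5 genes for storage and low-affinity uptake, 2 rose and 1 fell in eco1-W216G against wild type: FET4 fell by 0.62 ± 0.14, the manganese transporter gene SMF1 rose by 0.94 ± 0.11, and CCC1, which moves iron into the vacuole, rose by 0.22 ± 0.09. Of 9 measured copper genes 2 rose and 2 fell, CTR1 and CCS1 being those that fell. Both counts stand beside the same 23.7% of all probe sets that rose and 30% that fell.

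Some members varied together from array to array and others did not. Over the 27 arrays the 6 pairs among SIT1, ARN1, ARN2 and ENB1 correlated at 0.84 to 0.90, and after each group's mean was taken off at 0.76 to 0.86. FRE1, FET3 and FTR1 correlated among themselves at 0.81 to 0.91, and at 0.63 to 0.68 within groups. The transporters correlated with FRE1, FET3 and FTR1 at 0.40 to 0.91, and at 0.14 to 0.91 within groups. FIT1 correlated with the other 9 genes at 0.21 to 0.77, and at 0.13 to 0.67 within groups. HMX1 correlated with the other 9 genes at -0.52 (FRE1) to 0.43, and at -0.27 to 0.34 within groups. These correlations are descriptions over arrays that share groups and dates. Replicate 1 was the highest of its group in the mean of the 4 transporters in the rad61 deletion (0.43 above the group mean), in the fob1 deletion in April (0.29), in eco1-W216G (0.25) and in the strain labelled mcd1 fob1 with Rec8 (0.22). It was also highest in eco1-W216G fob1, the fob1 deletion in June and wild type, and not in the other 2 groups.

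**Figure D4:**
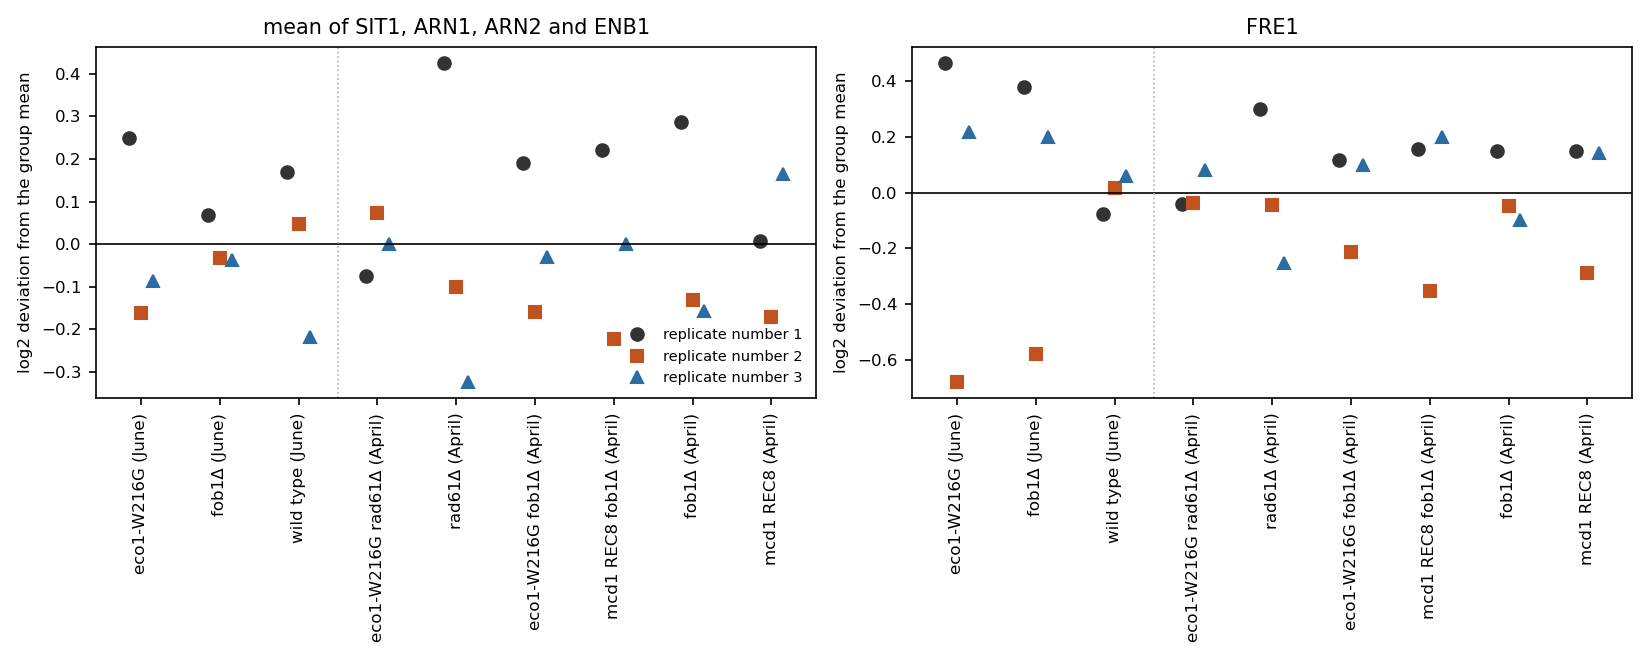
Log2 deviation of each array from its group mean (vertical axis) for the mean of the 4 siderophore transporters (left) and for FRE1 (right), by group (horizontal axis) and replicate number (symbols). Replicate 1 lies highest for the transporters in 7 of 9 groups, and replicate 2 of eco1-W216G and of the June fob1 deletion lies 0.68 and 0.58 below its group for FRE1.

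The genes most like the members were found by correlation with the mean of the 10 standardized members over 27 arrays. The 5 nearest that are no member were ENA5 (0.93), a sodium pump gene, TIS11 (0.86), PHO91 (0.85), a vacuolar phosphate transporter gene, AKR1 (0.85), a palmitoyl transferase gene, and KHA1 (0.84), a putative potassium/proton antiporter gene. TIS11 and AKR1 stood in the list of Aft targets. Of the members, ENB1 (0.96) and ARN1 (0.96) followed that mean most closely and HMX1 least (0.08). Each member is itself part of that mean, so these values are not comparable with those of the outside genes.

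By gene order in the R64 table, 6 of the 10 genes lie within 13 protein-coding genes of a chromosome end, a cut taken from the members themselves, against 7.22% of the 6021 genes in the table. They are SIT1, ARN1, ARN2, ENB1, FRE2 and FIT1, the siderophore group with FRE2, while FRE1, FET3, FTR1 and HMX1 lie farther in. Of 15 measured neighbours, 4 rose and 2 fell in eco1-W216G against wild type, beside 23.7% and 30% of all probe sets. MCH2 beside FRE2 and HSP31 beside FIT1 each rose by 0.97, where FRE2 and FIT1 had 0.16 and 0.33 and did not pass the test. AAC1 beside FET3 rose by 0.59 while FET3 fell by 0.55. CRR1 beside FRE1 fell by 1.22, the same way as FRE1, which fell by 1.09. HPA3 beside SIT1 rose by 0.55 and EFM1 beside ARN1 fell by 0.47, while neither SIT1 nor ARN1 passed the test. When eco1-W216G was added to the fob1 deletion, 0 of the 15 neighbours rose by limma (5 at an unadjusted p under 0.05) and 1 fell, HSP31 (-0.92, adjusted p = 0.0397).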

How the data were processed

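The authors deposited an intensity for each probe set on a linear scale, made by the authors with RMA and R 2.15.2, as the submitters' processing notes name them; log2 was taken before any test, where the planned tests had also allowed for log2 values. The 5814 deposited probe sets include 51 controls and 47 reporters, which were dropped, and the other 5716 were tested with no filter on low values, so all 10 members were tested. Per the labels, cRNA was made from 300 ng of total RNA. The precision is limited by the number of arrays, 3 per group.

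A single linear model over all 27 arrays, with a mean for each of 9 groups and 18 residual degrees of freedom, was fitted in limma 3.58.1 (R 4.3.3). Tests were two-sided, with Benjamini-Hochberg adjustment over all 5716 probe sets within each of 13 comparisons. Comparisons of April strains with wild type subtract the difference of the fob1 deletion between dates. The members and the gene lists were chosen with earlier results of these data known. Named genes are the 10 members, ECO1, FOB1, RAD61, FRE3, FIT2 and FIT3, up to 4 called genes per list with the largest differences, the 5 genes most like the members, and neighbours of members. MCD1, REC8, CRR1, FRE7 and FET4 as a companion of FRE1 were added after their values were seen. All genes of the lists but CUP1-2 matched a probe set. A gene symbol was given for 5498 of the probe sets tested and none for 218.

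Same-numbered arrays deviated together in part: the median correlation of their deviations was 0.30 in April, with 35 of 45 pairs over 0.1, and 0.21 in June, with 7 of 9. Every pair was over 0.1 for eco1-W216G added to the fob1 deletion and to the rad61 deletion, the fob1 deletion within the strains labelled with Rec8, and the rad61 against the fob1 deletion, and these 4 comparisons were taken as paired from the data.

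On simulated data with 200 of 5716 probe sets changed, the model found 87 of 100 set to change 1.5-fold and 99 of 100 set to change 2-fold for eco1-W216G against wild type, where 6.06% of its calls were false. For the difference between the fob1 deletion and wild-type backgrounds it found 67 and 91, and 5.39% were false. The simulated noise was normal and independent between arrays, while same-numbered arrays here deviated together in part. In the data 3066 probe sets were called for eco1-W216G against wild type, far more than the 200 changed. These rates thus check the model's working and are not the error rates of the comparisons. Alternatives were the replicate number as a block, dim probe sets left out, quantile normalization repeated, median centring, an intensity offset of 50, a trended and robust prior, only the arrays compared, no date term and leaving out each array. Leaving out the arrays that stood apart, or those low in FRE1, was added after seeing the data. Promoter and other sequences were not used here.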

Additional observations from a re-analysis of the deposited data

Results flagged for a closer look

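The members listed here had an eco1-W216G change that differed between strain backgrounds by the interaction term of the limma model. In the fob1 deletion minus wild type, the difference of the log2 changes was 1.06 for SIT1, 0.82 for ARN1, 0.85 for ENB1, 1.03 for FRE1, 0.76 for FRE2, 0.81 for FET3, 0.66 for FTR1 and -1.11 for HMX1. In the rad61 deletion minus wild type it was 0.44 for FET3, 0.42 for FTR1 and -1.19 for HMX1. FET3, FTR1 and HMX1 thus differed from wild type in both backgrounds, with the June arrays shared between the contrasts. The April backgrounds and the June wild type cannot be told apart from their dates. For the fob1 deletion, the low FRE3, FIT2 and FIT3 signal of eco1-W216G, not seen in eco1-W216G fob1, cannot be told apart from the background either.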

How the results depend on the processing

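The counts of members called for eco1-W216G against wild type and for both differences between backgrounds stayed within 1.5 times under all alternatives run for them. With only the arrays compared in the fit, 0 members were called for the fob1 deletion against wild type, 2 for eco1-W216G added to the fob1 deletion and 0 for the fob1 deletion in June against April. That fit has fewer residual degrees of freedom than the 18 of the full model, and why the calls were lost was not tested. Median centring gave 2 for eco1-W216G rad61 against eco1-W216G fob1. With the replicate block, 1 member was called for the strain labelled mcd1 fob1 with Rec8 against the fob1 deletion (SIT1) and 1 for the rad61 deletion against wild type (HMX1), and no member lost a call under the block in any comparison. Without the date term, 4 members were called for the rad61 deletion and 2 for the strain labelled mcd1 with Rec8 against wild type. There ARN1 reversed to 0.45 in the rad61 deletion and FET3 to 0.24 in the strain labelled mcd1 with Rec8; the fob1 strain differed between those dates. Leaving out 1 array gave 0 to 4 members for the fob1 deletion against wild type, 0 to 4 for eco1-W216G added to the fob1 deletion, 0 to 1 for the strain labelled mcd1 fob1 with Rec8, 0 to 1 for the double mutants against each other, 0 to 4 for the fob1 deletion between dates and 0 to 1 for the rad61 deletion against wild type. With the arrays that stood apart left out, 1 member was called for the fob1 deletion against wild type and 0 between dates, and with those low in FRE1 left out 0 and 0. Of 2064 recomputed member values, 500 came from a called one, of which 395 kept call and direction and 105 lost the call, while 29 gained a call, 2 reversed and 82 uncalled values changed sign. Leaving out dim probe sets kept 4572 probe sets and 8 members, without FRE2 and FIT1, which have no value there. The causes of these changes were not tested.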

Other observations

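Genes of proteins that use iron were described from lists that the uptake genes do not enter. In eco1-W216G against wild type, 8 of 15 genes of iron-using enzymes rose and 3 fell, beside 23.7% of all probe sets that rose and 30% that fell. Those that rose include the succinate dehydrogenase genes SDH2 (1.04 ± 0.13, log2 difference ± limma SE, n = 3 arrays per group), SDH3 (0.62 ± 0.09) and SDH4 (0.76 ± 0.09), and those that fell include LEU1, an iron-sulphur enzyme of leucine synthesis (-0.95 ± 0.08). When eco1-W216G was added to the fob1 deletion, 0 of these 15 passed the limma test (0 at an unadjusted p under 0.05, beside 637 of the 5716 probe sets). When it was added to the rad61 deletion 3 rose, SDH2, SDH4 and RIP1, beside 5.18% of all probe sets that rose and 1.54% that fell.

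Of 16 iron-sulphur assembly genes, 5 rose and 2 fell in eco1-W216G against wild type, among them ISA1 (0.60 ± 0.07) and NBP35 (0.55 ± 0.07), which rose, and TAH18 (-0.72 ± 0.14), which fell. Of 8 haem synthesis genes, 3 rose and 2 fell: HEM14 rose by 0.59 ± 0.09 and HEM3 fell by 0.61 ± 0.13. Of 6 zinc genes, 4 fell and 0 rose, with ZAP1, the zinc-responsive activator gene, at -0.50 ± 0.10. In the same comparison 23.7% of all probe sets rose and 30% fell. CCS1, the copper chaperone gene of superoxide dismutase, fell by 0.65 ± 0.11 in eco1-W216G against wild type and by 0.54 ± 0.11 when eco1-W216G was added to the fob1 deletion (adjusted p = 0.0215).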
